A study of Mus musculus with 6 samples.

Results

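A set of 5 genes that carry only provisional symbols, Gm33103, Gm26812, Gm35200, Gm36319 and Gm32124, and the named gene Gcm2 were examined in BV2 cells exposed to human full-length apolipoprotein E4 (FL-ApoE4). With Gcm2 they are 6 of the 40202 genes listed in the deposited table and 6 of the 14079 whose mean over the 6 libraries reached 10 normalised reads. The members were chosen by the measured difference between treated and untreated libraries in this table, with no stated threshold, so their values in that comparison describe the choice and no test is given for them. BV2 is an immortalised line of mouse microglia, of C57BL/6 background per the labels. A group of 3 samples was left untreated (Control), and a group of 3 received FL-ApoE4, a lipid-carrying protein of the blood and brain, for 5 h at 25 µg/ml. Whether the untreated cells received the protein's vehicle is not said in the labels. Nor do they say that replicates were grown apart. A p-value here sets the difference between groups against the spread among these samples within groups, and that may be technical spread.

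Symbols made of Gm and a number are placeholders given to predicted mouse genes until a function is known. The 5 such members are long non-coding RNAs (lncRNAs) in the RefSeq annotation. An lncRNA is transcribed and often spliced like a messenger RNA but has no recognised protein product. Some lncRNAs act on the genes next to them, others act elsewhere, and for many no function is known. Gcm2 belongs to the family of the fly gene glial cells missing. In flies that gene directs the formation of glia, whereas the mouse gene encodes a transcription factor that is required for the parathyroid gland.

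None of the RefSeq transcripts of the 5 lncRNA members is curated. They are model transcripts, 1 for Gm36319, 2 each for Gm33103 and Gm35200, 4 for Gm26812 and 6 for Gm32124. GENCODE M21 lists Gm33103 and Gm26812 and lists Gcm2 as protein coding. The members lie on chromosomes 8 (Gm33103 and Gm26812), 1 (Gm35200), 19 (Gm36319), 6 (Gm32124) and 13 (Gcm2). Gm26812 is on the plus strand and the other 5 are on the minus strand. Gm35200 overlaps the oppositely transcribed Cd244a, Gm33103 overlaps the predicted gene Gm33052, which is listed at 0 in all 6 libraries, and Gm32124 overlaps Gm20124, which was not analysed here. The libraries were made with a directional kit. The strand setting of the counting is not given in the sources used here, so values of the overlapping genes are uncertain.

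Sequences before the annotated starts are shown for 4 of the lncRNA members because their symbols carry no other identity and because these members differed between the same libraries. Each is the 250 bases before a start in RefSeq, 5′ to 3′, from build GRCm38.p6, whereas the submitters' processing notes name GRCm39. Capitals mark a TATA box (TATAAA) or a cyclic AMP response element (CRE, TGACGTCA) found on either strand. For Gm26812, which has 4 annotated starts, the window that holds the CRE is shown. Gm33103 has no window in the table.
Gm35200 (GRCm38.p6 chr1:171562074-171562323, minus strand): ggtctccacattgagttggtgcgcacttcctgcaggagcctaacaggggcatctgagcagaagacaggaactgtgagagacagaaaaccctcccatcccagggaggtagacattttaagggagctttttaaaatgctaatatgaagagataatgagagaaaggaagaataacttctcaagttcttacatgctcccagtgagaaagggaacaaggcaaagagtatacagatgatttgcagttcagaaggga
Gm36319 (GRCm38.p6 chr19:30395382-30395631, minus strand): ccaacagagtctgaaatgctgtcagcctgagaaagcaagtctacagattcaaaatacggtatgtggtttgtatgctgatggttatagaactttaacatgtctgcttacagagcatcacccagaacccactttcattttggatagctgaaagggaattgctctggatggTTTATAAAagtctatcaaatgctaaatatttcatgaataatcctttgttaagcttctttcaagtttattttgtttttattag
Gm32124 (GRCm38.p6 chr6:144897770-144898019, minus strand): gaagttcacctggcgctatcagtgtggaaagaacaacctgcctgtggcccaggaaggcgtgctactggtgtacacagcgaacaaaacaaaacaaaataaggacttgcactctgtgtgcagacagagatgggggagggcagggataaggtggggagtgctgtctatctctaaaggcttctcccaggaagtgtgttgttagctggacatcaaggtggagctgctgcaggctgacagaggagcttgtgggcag
Gm26812 (GRCm38.p6 chr8:121856180-121856429, plus strand): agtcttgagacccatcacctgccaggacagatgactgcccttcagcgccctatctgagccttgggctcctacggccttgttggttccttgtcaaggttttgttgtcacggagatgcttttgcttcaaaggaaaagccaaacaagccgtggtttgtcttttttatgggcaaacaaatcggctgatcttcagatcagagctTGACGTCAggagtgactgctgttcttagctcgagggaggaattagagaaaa

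Motifs were searched on both strands of the 300-base windows, from 250 bases before to 50 after a start, for 8 windows of 5 members. A TATA box was found in the Gm36319 window as a pair of overlapping matches 82 and 80 bases before the start, and in the fourth window of Gm26812, against 13.6% of all 32851 windows. The CRE of Gm26812 began 51 bases before the start, and 1.79% of all windows hold that motif. An extended ETS motif (AGAGGAAG), of the kind bound by the myeloid factor PU.1, was matched by 2 overlapping stretches in the Gcm2 window and by 4.55% of all windows. Those stretches lie within a longer GENCODE transcript of Gcm2. The 8 windows held no AP-1 motif (TGANTCA), E-box (CACGTG), interferon-stimulated response element or ATF4 motif (TGATGNAA), which 7.81%, 7.15%, 3.44% and 3.97% of all windows hold. A loose NF-kB motif matched 4 of the 8 windows and 50.8% of all windows, and the shorter ETS letters (AGGAAG), which also lie within the extended ETS motif, 4 of 8 and 35.4%. A match is a description of the letters and not a binding site.

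Each library held between 45700128 and 54965393 reads assigned to genes. Control replicate 1 stood apart from the other libraries, at a chi-square per gene of 64.1 and 71.9 against control replicates 2 and 3, which differed from each other by 4.85. FL-ApoE4 replicate 1 also stood apart in its group, at 21.4 and 19.9 against replicates 2 and 3, which differed by 4.39. The myeloid identity of the cells was checked with 12 markers of microglia and macrophages, of which 11 had a mean of at least 10 normalised reads, with Cd68 and Csf1r highest. P2ry12, a marker of resting microglia, is listed at 0 in all libraries. The summed level of these markers was 188827 to 195590 normalised reads in controls and 209334 to 216677 with FL-ApoE4, and its part in the results below was not tested. Of 6 markers each, 4 of endothelium reached a mean of 10 (sums of 4030 to 6066 in controls and 5097 to 5966 with FL-ApoE4, led by Kdr at a mean of 4179). For oligodendrocytes 2 did (1151 to 1242 and 1211 to 1297, led by Mbp at 1121, with Mobp at 0). Neuron markers (2 of 6) summed to 83.5 to 87.6 and 61.2 to 80.3 normalised reads, and astrocyte markers (1 of 6, Aqp4 and Sox9 at 0) to 53.1 to 90.1 and 67.7 to 75.4. Fibroblast markers (0 of 6) summed to at most 8.69 in any library. Their part in the results was not tested either.

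The members other than Gm26812 were higher with FL-ApoE4 and Gm26812 was lower, and for each member the 3 treated libraries lay wholly on one side of the 3 controls. By choice of the members this holds for 6 of 6. Over all tested genes the groups did not overlap in 21.9%, 11.1% higher and 10.9% lower. The authors' deposited table gives all 6 members an adjusted p under 0.05, as it does for 2.85% of the genes with an adjusted p (1.51% on the higher side), and 4 of them stand among the 20 genes that its companion table lists as over 2-fold higher. Those calls come from the same libraries and comparison by which the members were chosen, so they are no added support. All values below are normalised reads, that is gene counts divided by 1 factor per library. They are not scaled by transcript length, so members are not ranked against each other by level. In bulk RNA, fewer cells with a transcript and less transcript per cell cannot be told apart.

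Gm33103, the lncRNA that lies near the lipoprotein lipase gene Lpl, was at 330, 349 and 335 normalised reads in control replicates 1 to 3. In FL-ApoE4 replicates 1 to 3 it was at 561, 581 and 545. The treated libraries were all higher, and libraries within a group were close to each other, including control replicate 1. The means were 338 ± 9.75 and 563 ± 18.1 (SD, n = 3 each), a ratio of 1.66 and a log2 difference of 0.73 ± 0.08 (SE, on the log2(value + 1) scale, as all log2 differences here). The spread between libraries of a group was 2.88% and 3.21% of the mean, below the 5.40% and 4.22% that counting alone gives at this depth.

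Gm35200 was the member with the largest ratio. It was at 14.1, 17.1 and 23.6 normalised reads in controls and at 60.2, 58.4 and 54.8 with FL-ApoE4. The lowest treated library was more than 1 log2 unit above the highest control (1.18). The means were 18.2 ± 4.83 and 57.8 ± 2.76 (SD, n = 3 each), a ratio of 3.17 and a log2 difference of 1.64 ± 0.23. The controls rest on 13, 18 and 25 reads, with 95% Poisson intervals that span 6.92 to 36.9 reads, and the treated libraries on 54, 63 and 56 reads (40.6 to 80.6). Intervals cover counting error only.

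Gm36319 varied most within groups. It was at 17.4, 34.1 and 26.4 normalised reads in controls and at 48.0, 102 and 66.6 with FL-ApoE4. In both groups replicate 1 was lowest and replicate 2 highest, and the lowest treated library was 0.48 log2 units above the highest control. The means were 26.0 ± 8.39 and 72.2 ± 27.4 (SD, n = 3 each), a ratio of 2.78 and a log2 difference of 1.42 ± 0.34. The variance between libraries of a group was 6.58 times the counting variance, so depth was not what limited its precision.

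Gm32124, the lncRNA member with the most annotated transcripts, was at 47.8, 66.4 and 87.6 normalised reads in controls. With FL-ApoE4 it was at 165, 195 and 128. The control with the highest value, replicate 3, stood against the lowest treated value, also replicate 3, with 0.54 log2 units between them. The means were 67.3 ± 19.9 and 163 ± 33.3 (SD, n = 3 each), a ratio of 2.42 and a log2 difference of 1.28 ± 0.25, and the variance within groups was 6.51 times the counting variance.

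Gcm2, the parathyroid transcription factor gene, was at 18.5, 17.1 and 17.0 normalised reads in controls and at 39.0, 46.4 and 35.2 with FL-ApoE4. The treated libraries were all above the controls, and the controls differed by less than counting error. The means were 17.5 ± 0.837 and 40.2 ± 5.65 (SD, n = 3 each), a ratio of 2.30 and a log2 difference of 1.15 ± 0.20. These values rest on 17, 18 and 18 reads and on 35, 50 and 36 reads. The 95% Poisson intervals of single libraries span 9.90 to 28.4 and 24.4 to 65.9 reads and overlap at their ends. They are not intervals of the group means, so their overlap does not compare the groups. The spread between controls was 4.78% of the mean where counting gives 23.8%, so the small SD of the controls understates their error.

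Gm26812, which neighbours the amino acid transporter gene Slc7a5, was the member that was lower. It was at 314, 297 and 335 normalised reads in controls and at 182, 196 and 192 with FL-ApoE4. The groups were separated by 0.60 log2 units. The means were 315 ± 19.3 and 190 ± 7.12 (SD, n = 3 each), a ratio of 0.602 and a log2 difference of -0.73 ± 0.09, with a variance within groups of 0.755 times the counting variance.

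**Figure D1:**
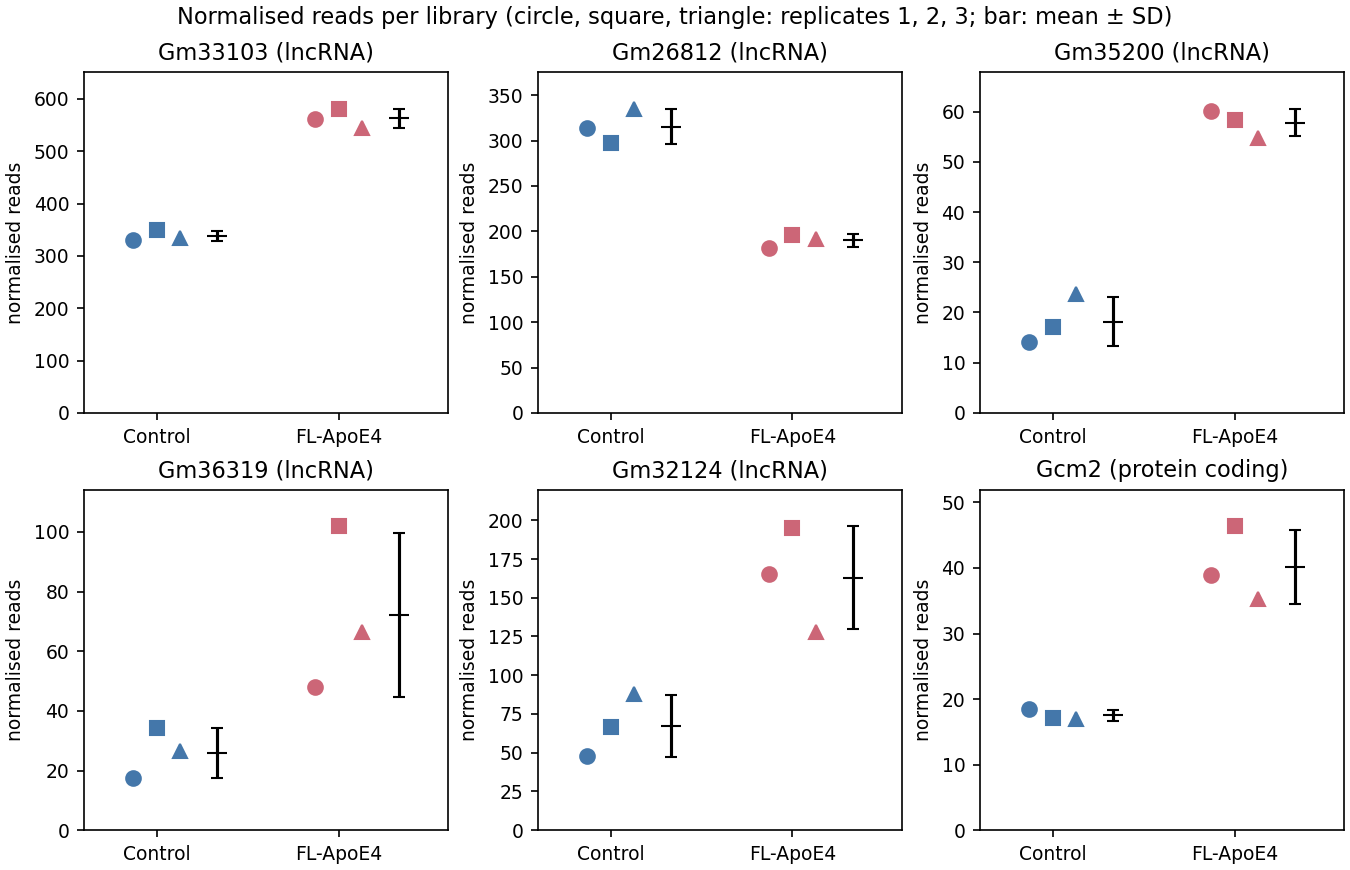
Normalised reads (vertical axes, from 0) of the 6 members in each library of the Control and FL-ApoE4 groups; circles, squares and triangles are replicates 1, 2 and 3, and bars are the mean ± SD of 3 libraries. In each panel the groups do not overlap, with Gm26812 lower (182 to 196 against 297 to 335) and the other members higher with FL-ApoE4.

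The differences were recomputed with libraries left out. Without control replicate 1, the library that stood apart, the log2 differences were 0.72 for Gm33103, 1.48 for Gm35200, 1.17 for Gm36319, 1.06 for Gm32124, 1.18 for Gcm2 and -0.73 for Gm26812. Without FL-ApoE4 replicate 1 they were, in the same order, 0.73, 1.61, 1.68, 1.26, 1.16 and -0.70. Gm33103 ranged from 0.71 to 0.76 and Gm26812 from -0.77 to -0.68 over the fits that left out a library. Gm36319 ranged most, from 1.14 without FL-ApoE4 replicate 2 to 1.68 without FL-ApoE4 replicate 1. Since the groups of each member do not overlap, the sign could not change, and this range shows the size only.

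**Figure D2:**
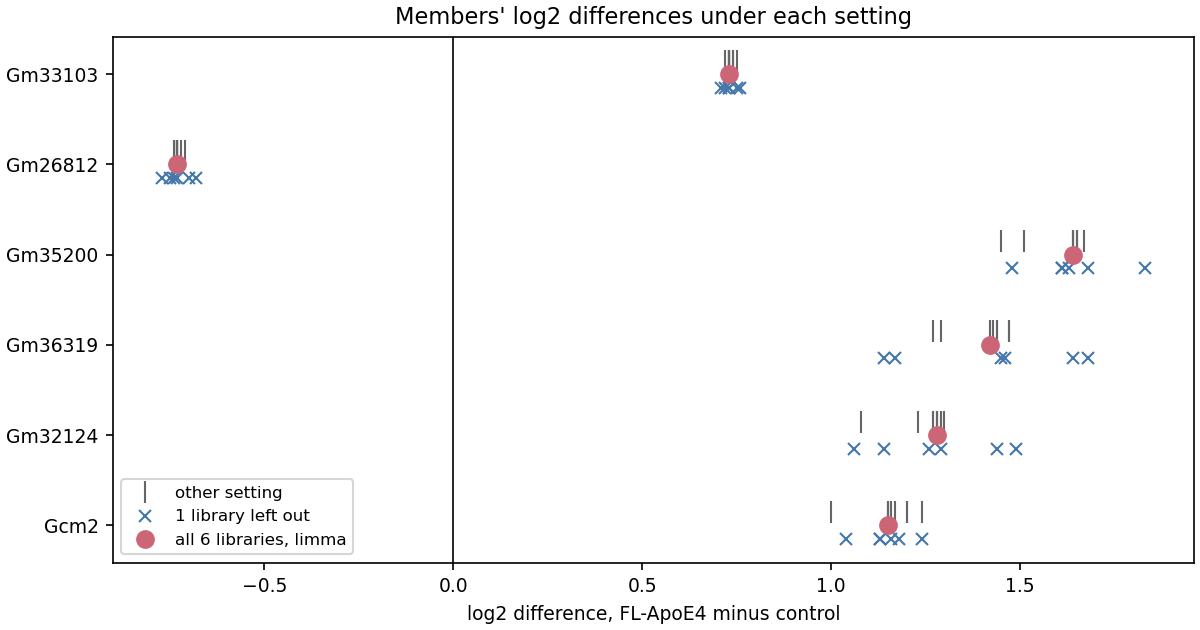
Log2 difference, FL-ApoE4 minus control (horizontal axis), of each member with all 6 libraries (circles), with 1 library left out (crosses) and under the other settings (ticks). Gm33103 and Gm26812 stay within 0.71 to 0.76 and -0.77 to -0.68, and Gm36319 spreads from 1.14 to 1.68.

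All members were chosen for the same split of the libraries, so their values move together by choice. Over the 6 libraries, Pearson correlations of log2 values among the 5 members that were higher ran from 0.87 to 0.99, and Gm26812 correlated with them at -0.99 to -0.84. The points share the libraries and the 2 groups, so these values describe the pattern only. The genes most like each member were taken from all 14079 tested genes. For Gcm2 they were Cx3cr1, the fractalkine receptor gene of microglia (r = 0.997) and the kinase gene Ptk2b (0.997). For Gm33103 they were the death receptor gene Tnfrsf21, LOC118568626 and Trim16, each at 0.997. Those nearest to Gm26812 were the splicing factor gene Luc7l2 (0.992), Mbip (0.990) and Arl5b (0.990).

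Gm35200 was most like Gng2, which encodes a G protein subunit (r = 0.998), Strada (0.997) and Cavin1 (0.995). Gm36319 was most like Nlrc4, an inflammasome receptor gene (0.995), the predicted gene Gm40191 (0.993) and Slc45a4 (0.993). For Gm32124 the nearest were Tada3 (0.996), the choline transporter-like gene Slc44a2 (0.995) and the receptor gene Gpr176 (0.995). With 6 libraries such values are common, and between 72 and 175 genes per member reached an r of 0.95. Likeness of pattern did not mean likeness of size. Nlrc4 went from a mean of 480 normalised reads to 583, a log2 difference of 0.28 where that of Gm36319 was 1.42, and Cx3cr1, with 106 and 246, was the named gene whose log2 difference (1.20) came nearest to that of its member.

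The genes beside the members were not used to choose them and could be tested in the fit over all genes. For each member the nearest gene on either side within 5 places and with a mean of at least 10 was taken, in the gene order of RefSeq GRCm38.p6. This gave 11 genes, since Gm32124 had none on one side. By limma 0 of the 11 reached an adjusted p under 0.05 (0% of all 14079 tested genes did), and 4 had an unadjusted p under 0.05, Gm32997, Slc7a5, Alyref2 and Sycp2l, against 13.1% of all tested genes. The edgeR quasi-likelihood test likewise called 0. DESeq2 called Gm32997 and Slc7a5, 2 of the 9 neighbours to which it gave an adjusted p, where it called 2.91% of all such genes. Groups did not overlap for 5 of the 11 (21.9% of all tested genes), and the sign was that of the member for 9. The median size of the log2 difference was 0.27 in the neighbours, 1.22 in the members and 0.10 over all tested genes. That of the members is large by choice, so its gap to the neighbours is no result. Low genes vary more, and the median was 0.24 in genes of other symbols with a mean of 10 to 100, the level of Cd244a, Gldc, Mak and Sycp2l.

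Beside Gm33103 lies another lncRNA of provisional symbol, Gm32997. It was at 126, 138 and 149 normalised reads in controls and at 270, 216 and 213 with FL-ApoE4. All treated libraries were above all controls. The means were 137 ± 11.4 and 233 ± 31.9 (SD, n = 3 each), with a log2 difference of 0.75 ± 0.13 (limma adjusted p = 0.112), close to the 0.73 of Gm33103. Over the alternatives its adjusted p ran from 0.00142 to 0.547, and by limma without control replicate 1 it was 0.0245 with a log2 difference of 0.69. Its strand is not given in the annotation used, so whether the pair is read from one transcript was not tested.

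Lpl, the next gene beyond Gm32997, was added after its values were seen. It encodes lipoprotein lipase, which frees fatty acids from lipoproteins. It was at 210339, 211502 and 221934 normalised reads in controls and 253281, 240367 and 235278 with FL-ApoE4. The groups did not overlap, and the log2 difference was 0.18 ± 0.05 (limma adjusted p = 0.228). On the other side of Gm33103, the monoamine transporter gene Slc18a1 overlapped between groups and had a log2 difference of 0.16 ± 0.09 (limma adjusted p = 0.522).

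Slc7a5, next to Gm26812, encodes LAT1, a transporter that brings leucine and other large neutral amino acids into the cell. It was at 23921, 23830 and 24586 normalised reads in controls and at 20361, 20707 and 21594 with FL-ApoE4. Its groups did not overlap, and it stood on the same side as Gm26812 but with a smaller difference. The means were 24112 ± 413 and 20888 ± 636 (SD, n = 3 each), a log2 difference of -0.21 ± 0.05 (limma adjusted p = 0.155; 0.0155 to 0.605 over the alternatives, and 0.0421 without control replicate 1). Klhdc4, on the other side, had a log2 difference of -0.04 ± 0.06 with overlapping groups.

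Sycp2l, next to Gcm2 and read from the opposite strand, is related to a protein of the synaptonemal complex of meiotic cells. It was at 11.9, 14.2 and 13.2 normalised reads in controls and at 29.0, 22.2 and 23.5 with FL-ApoE4. Both genes of the pair were thus low and higher in every treated library. The means of Sycp2l were 13.1 ± 1.14 and 24.9 ± 3.59 (SD, n = 3 each), a ratio of 1.90 and a log2 difference of 0.87 ± 0.23, which missed the threshold (limma adjusted p = 0.203; 0.150 to 0.605 over the alternatives). Mak, a protein kinase gene of germ cells and photoreceptors on the other side of Gcm2, was at 18.9 ± 5.75 and 23.8 ± 8.40 with overlapping groups and a log2 difference of 0.31 ± 0.35.

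Cd244a, which overlaps Gm35200 on the opposite strand, encodes a SLAM-family receptor of natural killer and myeloid cells. It was at 16.3, 40.8 and 38.6 normalised reads in controls and at 36.8, 38.9 and 32.3 with FL-ApoE4. Control replicate 1 was low and the other 5 libraries lay between 32.3 and 40.8, whereas in Gm35200 all 3 controls were low. The log2 difference of 0.27 ± 0.35 (limma adjusted p = 0.814) became -0.14 without control replicate 1. Alyref2, of a family of mRNA export adaptors, lies 3 places from Gm35200 and was at 242 ± 36.8 and 320 ± 11.2, a log2 difference of 0.41 ± 0.13 (limma adjusted p = 0.242).

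Near Gm36319, the glycine decarboxylase gene Gldc had a log2 difference of -0.55 ± 0.27 and the cGMP-dependent kinase gene Prkg1 one of 0.16 ± 0.08, both 4 places away (limma adjusted p = 0.442 and 0.455). Bcat1, a branched-chain aminotransferase gene 2 places from Gm32124, was at 7292 ± 367 and 6999 ± 296 normalised reads (log2 difference -0.06 ± 0.06, limma adjusted p = 0.734). The log2 differences of Gm36319 (1.42) and Gm32124 (1.28) were larger, but these 2 genes were chosen by that difference and their neighbours were not.

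**Figure D3:**
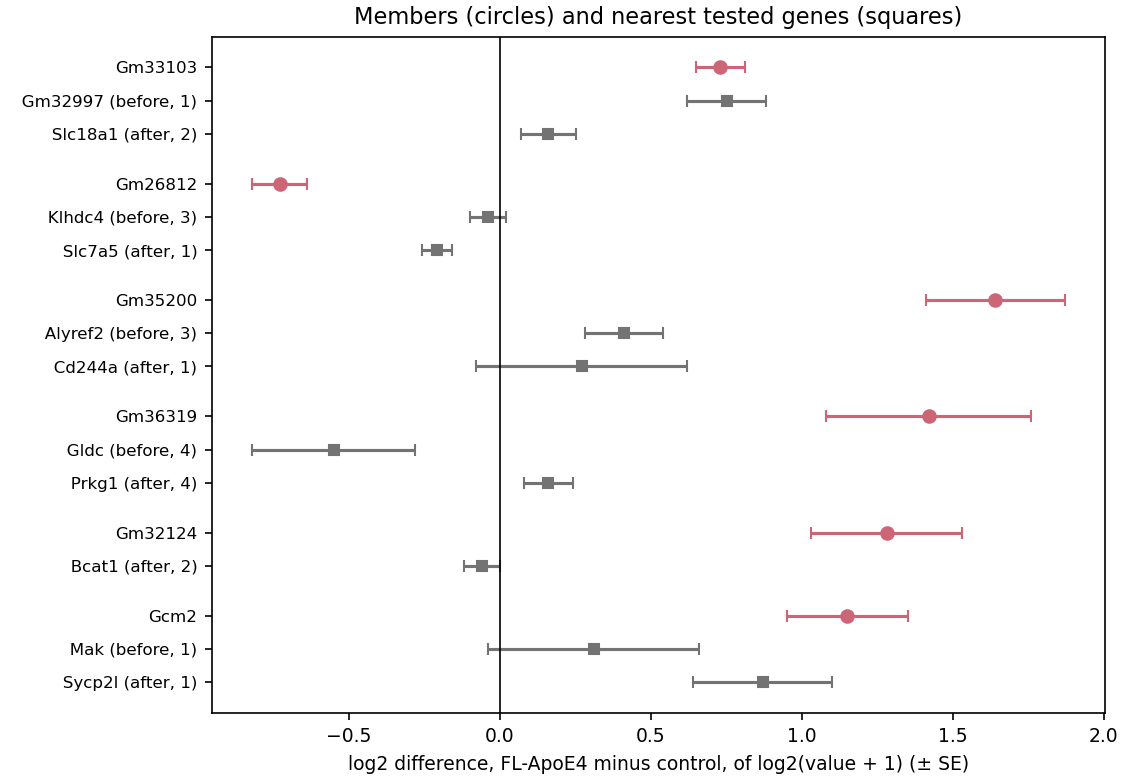
Log2 difference, FL-ApoE4 minus control, with its SE (horizontal axis) for each member (circles) and the nearest tested genes before and after it (squares, with the number of places in the gene order). Gm32997 (0.75) lies beside Gm33103 (0.73) and Sycp2l (0.87) near Gcm2 (1.15), whereas Klhdc4 (-0.04) and Bcat1 (-0.06) lie near 0.

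**Figure D4:**
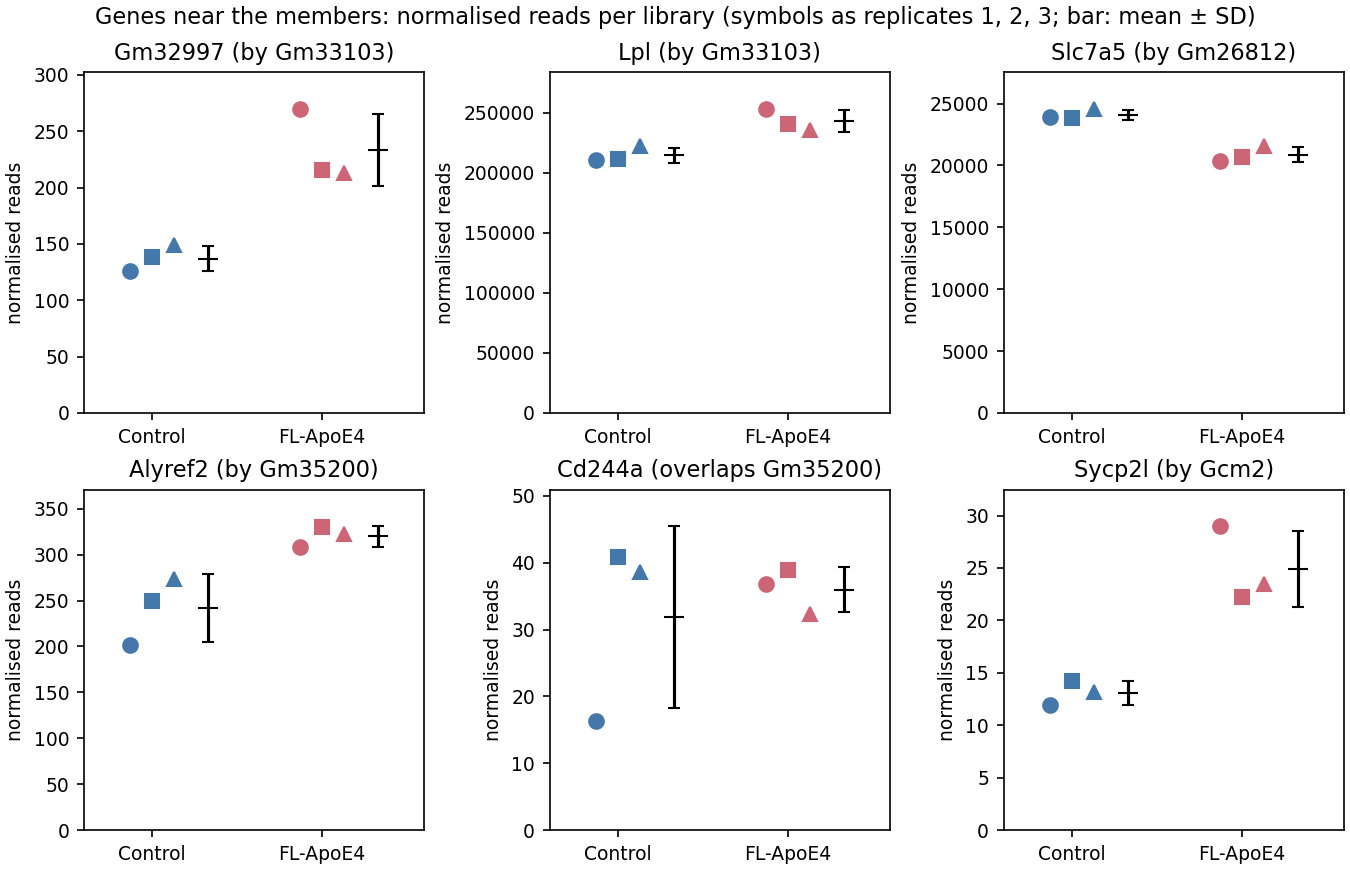
Normalised reads (vertical axes, from 0) per library of 5 neighbours and of Lpl; circles, squares and triangles are replicates 1, 2 and 3, and bars are the mean ± SD of 3 libraries. Groups are apart for Gm32997, Lpl, Slc7a5, Alyref2 and Sycp2l, and overlap for Cd244a, in which control replicate 1 is low at 16.3.

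The members were then set beside the other genes of provisional symbol. The table lists 13069 such genes, of which 7663 are at 0 in all libraries and 1231 had a mean of at least 10. Their typical level was low, with a median of 35.2 normalised reads where all tested genes had 1289. By limma 0 of them reached an adjusted p under 0.05 (edgeR also 0, and DESeq2 19 of 808 with an adjusted p, or 2.35% against its 2.91% of all genes). Leaving out the 5 members, 1226 remained, of which 149 had an unadjusted p under 0.05, or 12.2% where 13.1% of all tested genes had. Of the 149, 116 were higher and 33 lower with FL-ApoE4, which is 9.46% and 2.69% of the class where all tested genes had 6.81% and 6.33%. The groups did not overlap for 180 on the higher and 76 on the lower side, 14.7% and 6.20% of the class against 11.1% and 10.9% of all tested genes. No test of this split was made.

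With the members the split was 120 higher and 34 lower, and it was 122 and 34 under TMM scaling and 124 and 31 with equal library totals. Without control replicate 1 it was 128 and 30. With no filter beyond a mean above 0, which brought in genes of very few reads (5406 predicted genes), it was 170 higher and 202 lower, and other genes had 917 and 1227. The median log2 difference of the class was 0.07, against 0.00 over all tested genes, and turned to -0.08 with no filter, where other genes had -0.02. The lncRNAs among the predicted genes, to which the 5 members belong, numbered 1047 and had 109 higher and 21 lower. The 560 lncRNAs with other symbols had 55 higher and 7 lower. Predicted protein-coding genes, 128 in number, had 7 higher and 12 lower. Other genes with a mean from 10 to 100 normalised reads had 156 higher and 100 lower of 2299, where predicted genes at that level had 78 and 27 of 954.

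The members were chosen by their difference between the groups, so their places within the class describe the choice. By log2 difference, Gm35200, Gm36319 and Gm32124 had places 2, 3 and 4 on the higher side, and Gm33103 stood at place 58. Gm26812 was at place 35 on the lower side. The largest was that of Gm33661, at 6.52, 7.59 and 4.71 normalised reads in controls and 2036, 5.56 and 860 with FL-ApoE4. FL-ApoE4 replicate 2 was thus at the level of the controls, unlike in any of the 6 members, whose groups are apart by choice. Gm33661 was named after its values were seen, and it was the 1 gene that limma called without FL-ApoE4 replicate 2.

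The predicted genes of lowest limma p, beyond the members, were on the higher side Gm39673 (74.5 ± 5.31 to 125 ± 7.68 normalised reads), Gm32997, described above, and Gm31613 (70.1 ± 8.11 to 119 ± 10.3). Their log2 differences were 0.74, 0.75 and 0.76, near the 0.73 of Gm33103. On the lower side Gm7247 went from 26.4 ± 5.39 to 7.61 ± 2.77 normalised reads, a log2 difference of -1.70 ± 0.32. Gm40447, Gm40100 and Gm44140 had log2 differences of -1.48, -1.13 and -1.19. None passed the threshold (limma adjusted p of 0.112 to 0.206), and in each the groups did not overlap.

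**Figure D5:**
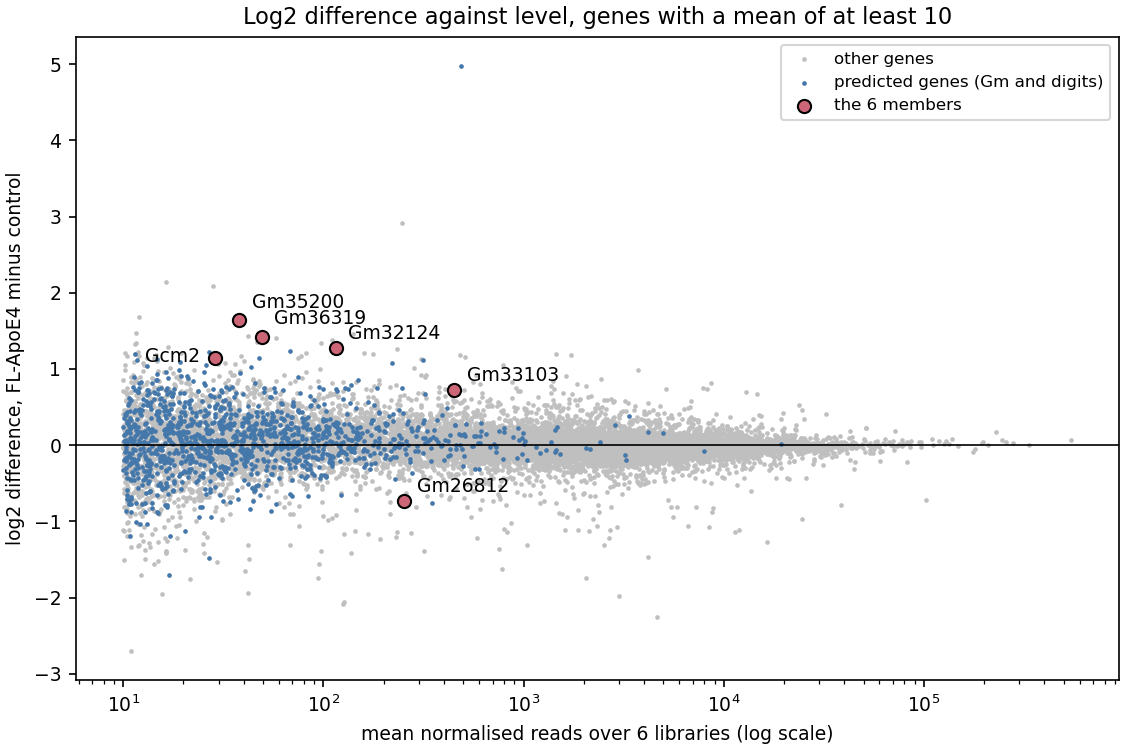
Log2 difference, FL-ApoE4 minus control (vertical axis), against the mean normalised reads over 6 libraries (horizontal log axis) for the 14079 tested genes; predicted genes are blue, other genes grey and the members red. Most predicted genes lie at low levels (median 35.2), and Gm35200 (1.64), Gm36319 (1.42) and Gm32124 (1.28) lie above most genes of their level. The members were chosen by this difference.

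Gcm2 was also set beside genes that act with it in the parathyroid or in the calcium and vitamin D system, a list of 25 genes. Most were near 0: 4 are listed at 0 in all libraries, among them Pth, the parathyroid hormone gene, and 14 had a mean above 0 but under 10. The paralogue Gcm1 had 1.09 normalised reads in control replicate 1 and 0 in the other libraries, and was named after its values were seen. The calcium-sensing receptor gene Casr, a target of Gcm2 in the parathyroid, was at 5.43, 1.90 and 5.65 normalised reads in controls and at 2.23, 0.927 and 0.979 with FL-ApoE4. The means were 4.33 and 1.38, a ratio of 0.319, on the opposite side from Gcm2. The groups overlapped through 1 control, and Casr, under the mean of 10, was not tested. Parathyroid markers other than Gcm2 were thus at or near 0 in both groups.

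Of the 7 list genes with a mean of at least 10, 0 were called by limma or edgeR, 1 by DESeq2, and 2 had an unadjusted p under 0.05, 1 on each side (13.1% of all tested genes had one). The median log2 difference was -0.07, with 3 positive and 4 negative. Without control replicate 1 limma called 1 of the 7, where it called 4.62% of all tested genes.

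Cdc73, which encodes parafibromin, was at 6811 ± 450 and 5983 ± 29.2 normalised reads, a log2 difference of -0.18 ± 0.06 (limma adjusted p = 0.247), and the menin gene Men1 at 2881 ± 66.8 and 2679 ± 55.0 (log2 difference -0.10). Both had non-overlapping groups and missed the threshold. Rxra, which encodes a retinoid receptor that pairs with the vitamin D receptor, had a log2 difference of 0.14 ± 0.19. Gata3, a regulator of Gcm2 in the parathyroid, was at 263 ± 33.1 and 249 ± 8.49, with overlapping groups and a log2 difference of -0.07 ± 0.11 where that of Gcm2 was 1.15.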

How the data were processed

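Total RNA of 6 BV2 samples was sequenced from directional libraries, per the labels' protocols. The submitters' processing notes name build GRCm39, HTSeq, HISAT2 2.2.1, DESeq2 1.30.1 and FastQC 0.11.8, with roles not given in the sources used here. For each gene and library the authors deposited a normalised signal. All values (100%, tolerance 0.01) were whole multiples of their column's smallest, so division recovered the reads, 45700128 to 54965393 per library. The authors' deposited table of log2 fold changes, scores (test statistics) and p-values, with their linear ratio for genes over 2-fold, served only to describe the authors' calls.

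Genes were tested with limma 3.58.1 (trend, R 4.3.3) on log2(value + 1), two-sided, for genes with a mean of at least 10, with group as the only term, Benjamini-Hochberg adjustment over all genes and a threshold of 0.05. A log2(value + 1) difference understates changes of low genes. Recovered reads were tested with DESeq2 1.42.0 and the edgeR 4.0.16 quasi-likelihood test. The script was tested on simulated data.

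Members and lists were chosen with earlier results of these data known. Named genes were the members, the nearest tested genes within 5 places, the 3 most alike genes per member, the 5 predicted genes of lowest p per side, the 6 list genes of lowest p and markers. Some genes that this rule names are not reported here. Of the table's names, 38730 (96.3%) were found among RefSeq symbols of GRCm38.p6, which gave the gene order, biotypes and promoter sequences. Alternatives were pseudocounts of 0.5 and 5, no filter, a mean of at least 50, TMM factors, equal totals, a replicate block, both count tests and each library left out. The edgeR test without control replicate 1 was added after the data were seen.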

Additional observations from a re-analysis of the deposited data

How the results depend on the processing

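Over 16 alternatives the members gave 93 values, all of the same sign as with all libraries and all within 1 SD between replicates of it. The members' groups are apart by choice and the alternatives reuse the same 6 libraries, so the shared sign is no added support. With a mean of at least 50, Gm35200, Gm36319 and Gcm2 were not tested. The count of called genes, 0 by limma (1850 at an unadjusted p under 0.05) and 0 by edgeR (1844), was 1 (P2ry6) with no filter, 370 by DESeq2, 0 to 651 by limma with a library left out and 691 by edgeR without control replicate 1. Among predicted genes it was 0 by limma and edgeR, 19 by DESeq2, 0 to 28 with a library left out and 28 by edgeR without control replicate 1, and in the parathyroid list 0, 1 by DESeq2, 0 to 1 with a library left out and 1 by edgeR without control replicate 1. The count was 651 without control replicate 1 and 1 without FL-ApoE4 replicate 2 (the predicted gene Gm33661), and 0 without any of the other 4 libraries. The cause was not tested. Leaving out FL-ApoE4 replicate 2 gave 1105 genes at an unadjusted p under 0.05. With single libraries left out, the log2 difference of Cd244a ranged from -0.14 to 0.50. Of 172 neighbour values, 2 changed sign, both for Cd244a, at -0.14 without control replicate 1 by limma and by edgeR, and 6 passed the threshold, those of Gm32997 and Slc7a5 under DESeq2 and without control replicate 1 by limma and edgeR.

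Same-numbered libraries of the groups correlated in their deviations at 0.13, 0.07 and -0.03. With 3 libraries per group and control replicate 1 apart, such values cannot decide whether the numbers pair the samples. The labels state no pairing. With the replicate block limma called 0 genes, 0 predicted genes and 0 of the list (2177 genes at an unadjusted p under 0.05). Gm35200 and Gcm2, with 13 to 63 reads in a library, are limited by counting, and Gm36319 and Gm32124 more by the spread between libraries.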
